A study of Mus musculus with 5 samples.

Results

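The genes described here are 10 regulators of mitosis: cyclin A2 (Ccna2), cyclins B1 and B2 (Ccnb1, Ccnb2), the kinases Aurka, Aurkb and Plk1, the checkpoint protein Bub1b, the activator of the anaphase promoting complex Cdc20, topoisomerase II alpha (Top2a) and the abscission protein Cep55. They were taken as a list of names, with no threshold on their values, and are 10 of the 15597 genes with reads in the series. The list was chosen with earlier results of these data known. The shares over all genes set beside it below are therefore descriptions and not tests. Each of the 10 had reads in each of the 5 plates.

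Entry into mitosis is driven by cyclin-dependent kinase 1 bound to A- and B-type cyclins, and Plk1 and Aurora A help to switch it on and to build the spindle. Bub1b holds the spindle checkpoint closed until every chromosome is attached, after which Cdc20 directs the anaphase promoting complex to destroy cyclin B. Most of these mRNAs are made in G2 phase and mitosis, so in a dividing population only some cells are known to hold many of them at a given time.

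Single mouse cells were profiled by single-cell tagged reverse transcription, in which a template-switching oligo gives the 5′ end of every cDNA in a well a barcode of 5 bases. Cells were sorted 1 to a well into plates of 96 wells, and the wells of a plate were pooled before PCR. ES R1 (3 plates) is an embryonic stem cell line, labelled as spheres derived from such cells, Neuro2A (1 plate) is a neuroblastoma line, and MEF (1 plate) are embryonic fibroblasts. Neuro2A and MEF were grown in DMEM with serum and ES R1 by a published protocol for spheres, with no genetic change or treatment given in the labels for any of the groups.

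Of 480 wells, 431 had at least 1000 reads on genes and were kept (93, 66 and 94 of the ES plates, 86 of the Neuro2A plate and 92 of the MEF plate), where the design text states 436 cells. Gene reads per plate were fewest in ES replicate 2 (277068) and most in ES replicate 1 (11434036), with 2135379, 3160286 and 2932933 for ES replicate 3, Neuro2A and MEF. The deepest well of ES replicate 2 held 25.9% of its kept gene reads. The 8 ES markers, such as Pou5f1 and Nanog, were all read in each ES plate at 6594 to 9733 counts per 1000000 gene reads (CPM) in sum, against 0.317 CPM in Neuro2A and 1.36 CPM in MEF. The 10 fibroblast markers summed to 34170 CPM in MEF against 1513 to 5573 CPM elsewhere, and the neuroblastoma markers, 9 with reads, to 1687 CPM in Neuro2A, 178 CPM in MEF and 0.700 to 93.2 CPM in ES. None of those 9 was at 0 in MEF. Macrophage (1 of 7 with reads in the series), endothelial and epithelial markers summed to 0, 0 and 1.27 CPM in Neuro2A and to 0, 0 and 2.39 CPM in MEF. In ES the highest sums were 16.9 CPM for macrophage, 114 CPM for endothelial and 644 CPM for epithelial markers.

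The same 96 barcodes were used on all 5 plates. For 135 genes with at least 100 CPM in Neuro2A and at least 10 times less on every ES plate, the MEF plate held a median of 9.45% as many reads as Neuro2A. Of those MEF reads 65.2% were in wells whose Neuro2A well of the same barcode had the gene, where Neuro2A had it in 32.02% of wells. The first is a share of reads and the second of wells. For MEF genes, Neuro2A (median 0.377%) had 91.1% of reads at such barcodes, against 28.2% of MEF wells. ES replicate 1 (median 0) had 70.2% against 29.0%, and ES replicate 2 (median 0) 19.5% against 26.8%. A match of barcodes alone thus does not show shared reads. Barcodes ending in G had more genes (below), and their part in this was not tested. For 200 MEF genes chosen the same way, ES replicate 3 held a median of 10.8% as many reads as MEF, and 96.3% of them were at barcodes where MEF had the gene, against 41.4% of MEF wells. The choice set no limit on MEF for the 135 genes or on ES replicate 3 for the 200. Expression of their own therefore cannot be told apart from shared reads in these shares. Shared reads may touch every low MEF value below. The 10 genes, and the counts of the other lists, are therefore also given with these shares subtracted well by well. Each cell type other than ES had 1 plate, so a difference of cell type cannot be told apart from one of plate, and nothing in the labels says that the ES plates were separate cultures. The p-values therefore measure the spread between 3 ES plates, which may be technical, and wells are not replicates.

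Reads of this method start at the 5′ end of a transcript, next to the promoter, and genes of this kind are known to share 2 promoter elements. One is the cell cycle genes homology region, or CHR, the binding site of the DREAM and MuvB complexes, searched here as TTTGAA. The other is the CCAAT box bound by NF-Y, searched as CCAAT, both on either strand. In RefSeq windows of build GRCm38.p6, from 250 bases before to 50 bases after a start site, 8 of the 10 genes had an entry, and Ccna2 and Aurkb had none. TTTGAA was in the window of 7 of the 8, all but Ccnb1, against 20.2% of 27025 genes, and CCAAT in 7 of the 8, all but Cep55, against 41.1%. Both were present in 6 of the 8, against 7.97% of all genes, while the TATA box letters TATAAA were in 0 of the 8 and in 15.7% of all genes. In Aurka, Plk1 and Bub1b the TTTGAA letters lay after the start site, as did 1 of the 2 matches in Ccnb2 and the match in Cep55 counted from its first annotated start. A match is a description of letters and not a shown binding site. The stretches from 140 bases to 1 base before the start are printed for 6 genes to show how these letters are placed, 5′ to 3′ on the gene's strand, with CCAAT and TTTGAA of either strand in capitals (ATTGG and TTCAAA are the reverse forms). The positions are chr13:100786487-100786626 (minus strand) for Ccnb1, chr9:70421555-70421694 (minus) for Ccnb2, chr7:122159295-122159434 (plus) for Plk1, chr4:118437344-118437483 (minus) for Cdc20, chr11:99024190-99024329 (minus) for Top2a and chr19:38054901-38055040 (plus) for the second of the 2 annotated starts of Cep55.
Ccnb1: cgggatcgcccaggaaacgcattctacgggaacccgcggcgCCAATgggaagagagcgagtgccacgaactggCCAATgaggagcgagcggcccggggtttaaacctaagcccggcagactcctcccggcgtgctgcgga
Ccnb2: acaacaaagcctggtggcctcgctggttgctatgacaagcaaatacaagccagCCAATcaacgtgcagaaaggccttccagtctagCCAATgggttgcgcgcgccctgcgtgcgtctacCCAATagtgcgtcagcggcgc
Plk1: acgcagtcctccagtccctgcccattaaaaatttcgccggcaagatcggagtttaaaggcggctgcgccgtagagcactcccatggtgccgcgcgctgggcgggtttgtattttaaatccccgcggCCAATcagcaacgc
Cdc20: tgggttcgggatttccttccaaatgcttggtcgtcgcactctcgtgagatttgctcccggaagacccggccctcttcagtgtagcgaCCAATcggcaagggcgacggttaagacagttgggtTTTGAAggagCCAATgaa
Top2a: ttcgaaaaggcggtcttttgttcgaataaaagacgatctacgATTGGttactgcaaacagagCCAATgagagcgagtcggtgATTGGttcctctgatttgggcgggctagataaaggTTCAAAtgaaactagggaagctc
Cep55: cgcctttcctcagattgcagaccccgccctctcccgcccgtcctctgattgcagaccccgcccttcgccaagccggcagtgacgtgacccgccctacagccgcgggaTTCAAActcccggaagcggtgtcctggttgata
Ccnb1 carries 2 CCAAT boxes, 99 and 67 bases before the start, and Ccnb2 carries 3, at 87, 54 and 21 bases. In Cdc20 the TTTGAA begins 18 bases before the start and stands between CCAAT boxes at 53 and 8 bases. Top2a has the reverse form TTCAAA at 23 bases with CCAAT boxes at 98, 78 and 58 bases in the printed stretch, and Cep55 has TTCAAA at 33 bases. The build of the deposited counts is not given in the sources used here, and the windows were not set against read positions.

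As a group the 10 regulators were read most in ES cells, less in Neuro2A and least in MEF. Summed over the 10, they took 1112, 1234 and 1241 CPM in ES replicates 1, 2 and 3, 614 CPM in Neuro2A and 101 CPM in MEF. The 3 ES plates lay close together although their depth differed widely, and the other 2 plates lay below all of them. Every ES plate was above the MEF plate for 9 of the 10 genes, all but Plk1, where 31.5% of the 12271 genes tested were. Every ES plate was above the Neuro2A plate for 9 of the 10, all but Cep55, where 30.9% of all genes were. The median ratio of the ES mean to MEF was 16.3 over the 10 genes and 1.60 over all tested genes with a level above that of 3 reads in ES or MEF, counting a plate at 0 as 3 reads. Against Neuro2A the medians were 2.26 and 1.98. Both comparisons use the same ES plates and are not independent of each other. In sums over cells, fewer cells with an mRNA and less of it per cell cannot be told apart.

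**Figure D1:**
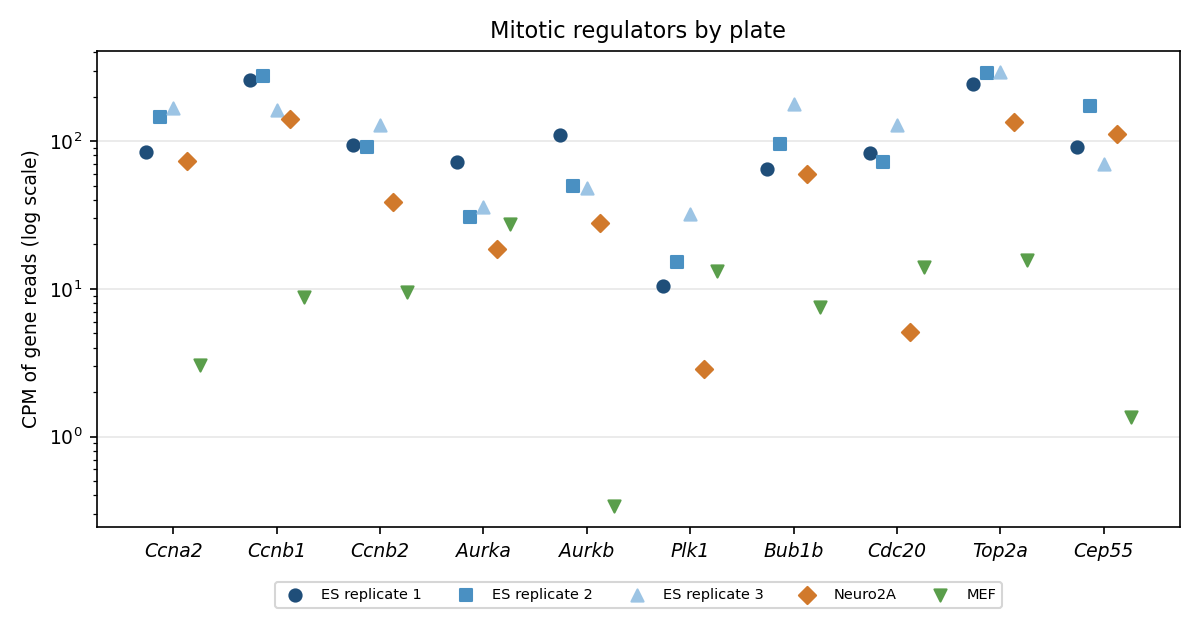
CPM (log scale) of each regulator in the kept wells of each of the 5 plates, 1 point per plate. The ES points lie above MEF for 9 of 10 genes, with Aurkb, Cep55 and Ccna2 furthest apart, while Plk1 in MEF lies inside the ES range.

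The cyclins that activate Cdk1 had higher levels on every ES plate than on the other 2 plates. Given equal weight for every well, that order held for all 3 against MEF and for Ccnb1 alone against Neuro2A. Ccna2, which acts from S phase into early mitosis, was at 84.7, 145 and 166 CPM in the ES plates (mean 132 ± 42.3, SD, n = 3), 73.5 CPM in Neuro2A and 3.07 CPM (9 reads) in MEF. The ES mean was 43.0 times the MEF level and 1.79 times the Neuro2A level, and no ES plate overlapped either. Ccnb1, the main mitotic cyclin, was at 258, 274 and 162 CPM (232 ± 60.7, SD, n = 3), 141 CPM in Neuro2A and 8.87 CPM (26 reads) in MEF. The lowest ES plate was thus near Neuro2A, and the ES mean was 26.1 times the MEF level. Ccnb2, its partly redundant paralog, was at 94.1, 91.4 and 129 CPM (105 ± 20.9, SD, n = 3), 39.0 CPM in Neuro2A and 9.55 CPM (28 reads) in MEF. The ES mean was 10.97 times MEF and 2.69 times Neuro2A. RefSeq lists pseudogenes of Ccnb1 and of Ccnb2, and how reads shared with them were counted is not given in the sources used here, so both levels are uncertain to that extent.

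The 3 kinases differed in how their ES plate levels stood to the MEF plate. In MEF a single well held 63.0% of the Aurka reads and 82.1% of the Plk1 reads. Aurkb, the kinase of the chromosomal passenger complex that corrects attachments of chromosomes to the spindle, was at 109, 49.5 and 47.8 CPM in ES (68.9 ± 35.0, SD, n = 3), 27.9 CPM in Neuro2A and 0.341 CPM in MEF, where it had 1 read. The ratio of ES to MEF was 202, with a counting interval of 36.2 to 7971 from that 1 read (exact Poisson, 95%). Aurka, the kinase of centrosomes and spindle poles, was at 71.8, 30.5 and 35.6 CPM in ES (46.0 ± 22.5, SD, n = 3), 18.7 CPM in Neuro2A and 27.6 CPM in MEF. All 3 ES plates were above MEF, but the lowest by little, and the ES mean was 1.66 times MEF. Plk1, the kinase that drives entry and spindle assembly, had the lowest level of the 10 on each ES plate, at 10.5, 15.2 and 31.9 CPM in ES (19.2 ± 11.2, SD, n = 3), 2.85 CPM (9 reads) in Neuro2A and 13.3 CPM (39 reads) in MEF. The MEF plate stood inside the ES range, and only Neuro2A was below all ES plates.

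Bub1b, the checkpoint protein BubR1 that inhibits Cdc20, was at 64.9, 95.2 and 179 CPM in ES (113 ± 59.1, SD, n = 3), 60.2 CPM in Neuro2A and 7.51 CPM (22 reads) in MEF. The lowest ES plate and Neuro2A differed by less than the spread among the ES plates. Cdc20 itself was at 82.9, 72.4 and 128 CPM in ES (94.4 ± 29.5, SD, n = 3), 5.07 CPM (16 reads) in Neuro2A and 13.99 CPM (41 reads) in MEF. It was the gene with the highest ratio of ES to Neuro2A among the 10, at 18.6, and its Neuro2A level was below that of MEF. Neuro2A was above MEF for 7 of the 10 genes, and MEF above Neuro2A for Aurka, Plk1 and Cdc20. For these 3 genes a single MEF well held most of the MEF reads. It had 51 of 81 of Aurka, 32 of 39 of Plk1 and 38 of 41 of Cdc20. In Neuro2A, too, 1 well held 72.9% of the Aurka reads and 1 well 93.8% of the Cdc20 reads. With 1 plate each, the order of Neuro2A and MEF has no replicate check.

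Top2a, which untangles sister DNA before anaphase, was the steadiest of the 10 across ES plates, at 245, 290 and 291 CPM (275 ± 26.5, SD, n = 3). Its coefficient of variation was 9.64%, against a median of 82.3% over all tested genes. Neuro2A had 134 CPM and MEF 15.7 CPM (46 reads), 2.06 and 17.5 times below the ES mean. Cep55, which brings the abscission machinery to the midbody at the end of division, was at 90.8, 171 and 70.3 CPM in ES (111 ± 53.5, SD, n = 3), 111 CPM in Neuro2A and 1.36 CPM (4 reads) in MEF. Neuro2A stood inside the ES range, and the ES mean was 81.2 times the MEF level.

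In edgeR's quasi-likelihood test over all 5 plates, with Benjamini-Hochberg adjustment over 12271 genes, 0 genes passed 0.05 in either comparison, and so 0 of the 10. The fit had 2 residual degrees of freedom and a common dispersion of 1.50. At an unadjusted p under 0.05 it held 1028 genes against MEF and 1525 against Neuro2A. All 10 had passed the filter on low counts. Ccna2, Ccnb1, Aurkb, Top2a and Cep55 were higher in ES than in MEF at that unadjusted level, 5 of 10 against a background of 4.21%. The same 5 passed an adjusted 0.05 in DESeq2, where 506 genes did and the background higher in ES was 3.39%. Their edgeR log2 differences were 4.68 ± 1.29 for Ccna2, 3.94 ± 0.97 for Ccnb1, 6.86 ± 2.09 for Aurkb, 3.39 ± 0.89 for Top2a and 5.52 ± 1.39 for Cep55 (± SE), with edgeR adjusted p of 0.493 to 0.519. The values for Ccnb2 (2.74 ± 1.21), Bub1b (3.20 ± 1.34) and Cdc20 (2.05 ± 1.29) were positive and did not pass, and those for Aurka (0.03 ± 1.41) and Plk1 (-0.17 ± 2.11) were near 0 with wide errors. Without ES replicate 1, edgeR called 645 genes against MEF, among them Ccna2 (adjusted p = 0.0229), Ccnb1 (0.0462) and Cep55 (0.0163), with a background of 1.81% higher in ES. Over the alternatives tried, the adjusted p (edgeR or DESeq2) ran from 0.00137 to 0.834 for Ccnb1, from 0.00183 to 0.834 for Cep55 and from 0.00341 to 0.834 for Ccna2.

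Against Neuro2A, only Cdc20 passed an unadjusted 0.05 in edgeR, with a log2 difference of 4.05 ± 1.47 (SE), an unadjusted p of 0.0339 and an adjusted p of 0.374, against a background of 8.38%. DESeq2, which called 1249 genes, gave Cdc20 an adjusted p of 0.0227, with 8.85% of all genes called higher in ES. The other 9 genes had edgeR log2 values of -0.27 (Cep55) to 2.59 (Plk1) and did not pass. Scaling moves these values: the median over all tested genes was -0.08 against MEF and 0.91 against Neuro2A with TMM factors, and 0.67 and 1.13 with library size alone. The median of the 10 was 3.30 and 0.99 with TMM factors and 4.03 and 1.19 with library size alone, so against Neuro2A the 10 lay near all genes under both scalings. Plk1 against MEF changed sign to 0.54 with library size alone and Cep55 against Neuro2A to 0.0032.

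Many of the few MEF reads stood at barcodes where Neuro2A had the same gene. All 9 Ccna2 reads of the MEF plate, all 26 of Ccnb1, all 4 of Cep55 and the 1 of Aurkb were in wells whose Neuro2A well of the same barcode also had that gene. Neuro2A had Ccna2 at 19.8% of its 96 barcodes, Ccnb1 at 29.2%, Cep55 at 10.4% and Aurkb at 6.25%. Top2a had 40 of 47 reads at such barcodes and Bub1b 17 of 22, while Neuro2A had Top2a at 30.2% and Bub1b at 14.6% of barcodes. The rest differed: 7 of 28 reads of Ccnb2, 16 of 81 of Aurka, 3 of 41 of Cdc20 and 1 of 39 of Plk1. Over all 10 genes, 44 of the 66 MEF wells with a gene, counted gene by gene, matched a Neuro2A well with it, against 131 of 960 (13.6%) of all Neuro2A wells counted that way. With ES replicate 1 as the other plate, 25 of the 66 (37.9%) matched, where that plate had the gene in 26.1% of wells. With ES replicate 3, 36 of the 66 (54.5%) matched against 38.8% of its wells. ES replicate 3 also held reads of MEF genes at the barcodes where MEF had them, and the plate that a given read came from was not tested. The 8 ES markers summed to 9733 CPM in ES replicate 3 and to 1.36 CPM in MEF. By reads, 124 of 298 MEF reads (41.6%) stood where Neuro2A had the gene, 85 (28.5%) where ES replicate 1 had it and 224 (75.2%) where ES replicate 3 had it. A single MEF well, described below, held 123 of the MEF reads and so weighs heavily in these shares.

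**Figure D2:**
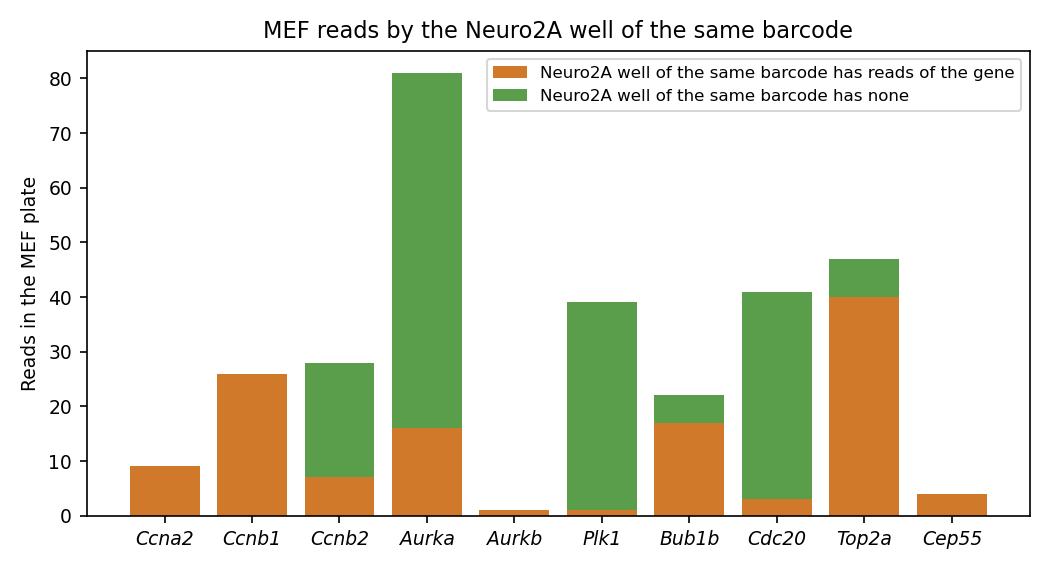
Reads of each regulator in all 96 wells of the MEF plate, split by whether the Neuro2A well with the same barcode had at least 1 read of that gene (orange) or none (green). Ccna2, Ccnb1, Aurkb and Cep55 are orange alone, and Aurka, Plk1, Cdc20 and Ccnb2 mostly green.

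With the shared reads subtracted, MEF kept 1 read of Ccna2, 2 of Ccnb1, 0 of Aurkb, 0 of Cep55, 8 of Bub1b, 18 of Top2a, 21 of Ccnb2, 40 of Cdc20, 39 of Plk1 and 76 of Aurka. The ES mean was then at least 69.1 times the MEF level for Aurkb and at least 111 times for Cep55, taking 3 reads on the plate as the floor. For Ccna2 the ratio was 380 with a counting interval of 68.2 to 15018, and for Ccnb1 326 with 90.3 to 2694 (exact Poisson, 95%). These intervals treat the reads left as a plain count and leave out the uncertainty of the subtracted share. MEF had held 9 reads of Ccna2 beside 232 in Neuro2A, 26 of Ccnb1 beside 446, 1 of Aurkb beside 88 and 4 of Cep55 beside 351. Each is less than the 9.45% share, so the subtraction may have taken too much and raised these 4 ratios. Top2a went from 17.5 to 43.6 times and Bub1b from 15.1 to 41.1 times, while Aurka (1.69), Plk1 (1.40) and Cdc20 (6.78) hardly moved. Every ES plate was above MEF for 9 of the 10 genes, and the share over all genes was not worked out for this setting. The subtraction takes reads from MEF and ES replicate 3 alone and mostly lowers these MEF values. This count and the next are therefore no separate evidence of a difference. edgeR after this subtraction held 0 genes at an adjusted 0.05 and 1500 at an unadjusted 0.05, 7 of the 10 among them, against a background of 5.75% higher in ES.

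A single MEF well held most of the MEF reads of Aurka, Plk1 and Cdc20. Its 37585 gene reads included 51 of Aurka, 38 of Cdc20, 32 of Plk1 and 2 of Bub1b, together 123 reads or 41.4% of the reads of the 10 genes on that plate. The Neuro2A well of that barcode had 0 reads of any of the 10, while ES replicate 3 had 34 there, with 3 of Aurka, 7 of Cdc20 and 10 of Plk1, each fewer than in MEF. ES replicates 1 and 2 had 3 reads and 1 read of the 10 at that barcode. In all, 38 of 41 MEF reads of Cdc20, 35 of 39 of Plk1 and 59 of 81 of Aurka were at barcodes where ES replicate 3 had the gene. A second MEF well held 21 of the 28 Ccnb2 reads and 3 of Aurka, again with 0 reads of the 10 in the Neuro2A well. The top well held 63.0% of Aurka, 82.1% of Plk1, 92.7% of Cdc20 and 75.0% of Ccnb2 reads on the plate, against 17.4% of Top2a. No doublets were called, and whether these wells held a single fibroblast was not tested.

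In Neuro2A, too, a few wells carried several of the levels. A single well, with 118 of 123 reads, made up 95.9% of Ccnb2, and Cdc20 was read in 2 of 86 wells with 93.8% of its reads in 1. The top well held 86.4% of Aurkb, 76.9% of Cep55 and 72.9% of Aurka, against 22.8% of Ccna2 and 21.97% of Ccnb1. The Neuro2A well with the most reads of the 10 genes had 270 of Cep55, 79 of Bub1b, 43 of Ccna2 and 2 of Ccnb1. Within ES replicate 3 the top well held 6.59% (Top2a) to 30.3% (Aurka) of a gene's reads, and within the deep ES replicate 1 25.9% (Aurka) to 52.1% (Ccnb2). The reads are PCR copies without molecular identifiers, so the number of molecules behind a well's reads is unknown.

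The share of wells in which a gene was read depends on depth, and ran highest in ES replicate 3. Top2a was read in 48.4%, 33.3% and 60.6% of ES wells, 33.7% of Neuro2A wells and 16.3% of MEF wells. Ccnb1 was read in 40.9%, 31.8% and 50.0% of ES wells, 32.6% in Neuro2A and 7.61% in MEF. Cdc20 was read in 30.1%, 16.7% and 45.7% of ES wells, 2.33% in Neuro2A (exact 95% interval 0.283 to 8.15%) and 2.17% in MEF (0.264 to 7.63%). Plk1 was at the other end in ES, at 10.8%, 4.55% and 20.2%, with 6.98% in Neuro2A and 6.52% in MEF, where all the intervals but that of ES replicate 3 overlapped widely. Aurka in MEF, at 16.3%, was above ES replicate 2 (7.58%) and Neuro2A (12.8%), but 8 of its 15 wells had 1 read. These intervals cover counting error only.

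**Figure D3:**
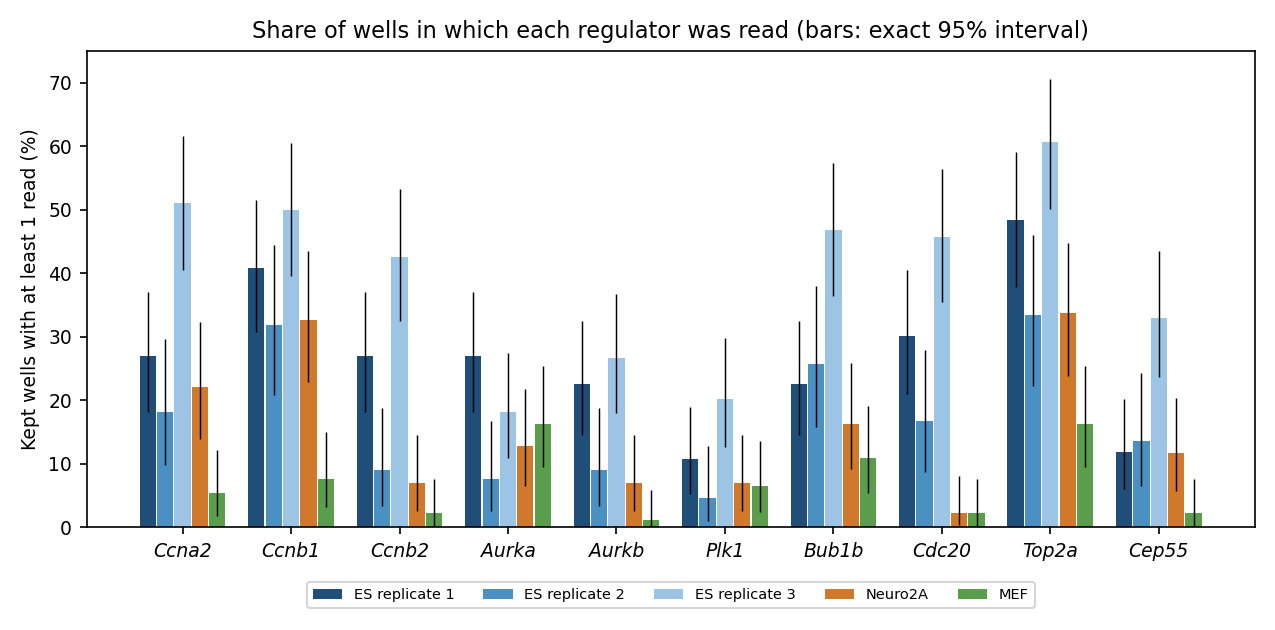
Share of kept wells with at least 1 read of each regulator (%), by plate, with exact binomial 95% intervals as error bars. ES replicate 3 is highest for 9 of the 10 genes, all but Aurka, and MEF is at or under 16.3% for every gene.

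Thinned to 5000 reads a well, which leaves out shallower wells, 62.2% of 90 wells in ES replicate 1, 89.4% of 85 in ES replicate 3, 42.0% of 69 in Neuro2A and 20.3% of 64 in MEF had at least 1 of the 10 genes. ES replicate 2 had 10 wells deep enough, 9 of them with a gene. Unthinned, the shares were 78.5%, 74.2% and 91.5% in ES, 61.6% in Neuro2A and 37.0% in MEF. At 5000 reads Top2a was read in 21.1% of wells in ES replicate 1 (interval 13.2 to 31.0%) and 47.1% in ES replicate 3 (36.1 to 58.2%). Bub1b was read in 7.78% (3.18 to 15.4%) and 37.6% (27.4 to 48.8%), and Cdc20 in 11.1% (5.46 to 19.5%) and 29.4% (20.02 to 40.3%). These intervals count wells within 1 library and give no test between plates. Thinning equalised reads but not genes: wells of ES replicate 3 had more genes at 5000 reads, with medians of 2185 and 1366 for barcodes that do and do not end in G, against 1564 and 672.5 in ES replicate 1. As a background, 7 of the 8 ES markers were at 0 in Neuro2A and 6 of the 8 in MEF, at a median of 26278 and 12749 gene reads a kept well. These markers do not measure reads shared with Neuro2A, whose 9 markers all had reads in MEF. Counted only where the Neuro2A well of that barcode lacked the gene, 14.1% of MEF wells had any of the 10 genes, unthinned (exact 95% interval 7.74 to 22.95%), and after subtraction 28.3%.

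The number of the 10 genes read together in a well was uneven. In ES replicate 1, 23 of 93 wells had 5 or more and 20 had none, where independent detection at each gene's share would give 8.66 and 3.66. ES replicate 3 had 36 of 94 wells with 5 or more and 8 with none, against 32.8 and 0.483. In Neuro2A 7 of 86 wells had 5 or more (0.619 under independence) and 33 none (15.2), and in MEF 0 of 92 had 5 or more and 58 none (43.4). All 10 genes were read in 1 well of ES replicate 1 and 3 wells of ES replicate 3. The best-filled MEF wells had 4. ES replicate 2 had 3 of 66 wells with 5 or more (0.858) and 17 with none (9.56). All these wells were unthinned and differed in depth, which the independent counts do not allow for. At 5000 reads a well, ES replicate 1 had 1 well with 5 or more (0.157) and 34 with none (28.1). ES replicate 3 then had 6 (4.28) and 9 (5.19), Neuro2A 0 (0.00618) and 40 (33.8).

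The ratio of observed to expected joint wells was also above 1 for other gene pairs. Over pairs of the 10 genes read in at least 10% of wells, the median of observed to expected joint wells was 1.79 in ES replicate 1 (45 pairs), 1.41 in ES replicate 3 (45 pairs) and 1.69 in Neuro2A (15 pairs). Over all gene pairs with the same minimum it was 1.73, 1.48 and 1.66. ES replicate 2 had 1.36 (15 pairs) against 1.47, and MEF 2.04 (3 pairs) against 1.51. At 5000 reads a well, the medians were 1.65 (10 pairs) against 1.31 in ES replicate 1 and 1.10 (28 pairs) against 1.08 in ES replicate 3. Pairs share genes and wells and are not independent, so no test is given. Ccna2 and Plk1 had the highest ratio in ES replicate 1, with 9 joint wells where 2.69 would arise independently (ratio 3.35). In ES replicate 3 the highest was Plk1 with Cep55, with 14 joint wells against 6.27 (ratio 2.23). Both are the largest of 45 unthinned pairs. Over all gene pairs, the top 10% began at 2.68 in ES replicate 1 and at 2.21 in ES replicate 3.

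The count of regulators per well followed the number of genes read in the well. Spearman's rho over wells, a description of wells that share a library, was 0.795 in ES replicate 1 (93 wells), 0.821 in ES replicate 3 (94), 0.770 in Neuro2A (86) and 0.462 in MEF (92). Without thinning, the last base of the barcode went with both. Wells whose barcode ends in G (24 in each of these plates) had a mean of 5.79 regulators in ES replicate 1 against 1.59 in other wells, 7.5 against 2.73 in ES replicate 3, 2.83 against 1.02 in Neuro2A and 1.29 against 0.500 in MEF. Their median number of genes was 3910 against 1131 in ES replicate 1, at median reads of 103262 against 98842. Median reads were 33225 against 14104 in ES replicate 3 and 36407 against 22223 in Neuro2A. Thinned to 5000 reads, the mean number of regulators was 1.79 against 0.818 in ES replicate 1 and 3.33 against 1.93 in ES replicate 3, but 0.625 against 0.689 in Neuro2A and 0.429 against 0.349 in MEF. The rho with the number of genes was then 0.512 for ES replicate 1, 0.513 for ES replicate 3, 0.242 for Neuro2A and 0.159 for MEF. Of the 23 wells with 5 or more regulators in ES replicate 1, 18 had such a barcode, as did 22 of the 36 in ES replicate 3. Among the other barcodes alone, the median pair ratio was 1.46 (21 pairs, all genes 1.36) in ES replicate 1 and 1.26 (36 pairs, all genes 1.17) in ES replicate 3. Among barcodes ending in G it was 1.14 (45 pairs, all genes 1.20) and 1.04 (45 pairs, all genes 1.08), below that of all genes. The part of the barcode in the wells with many regulators was not tested.

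**Figure D4:**
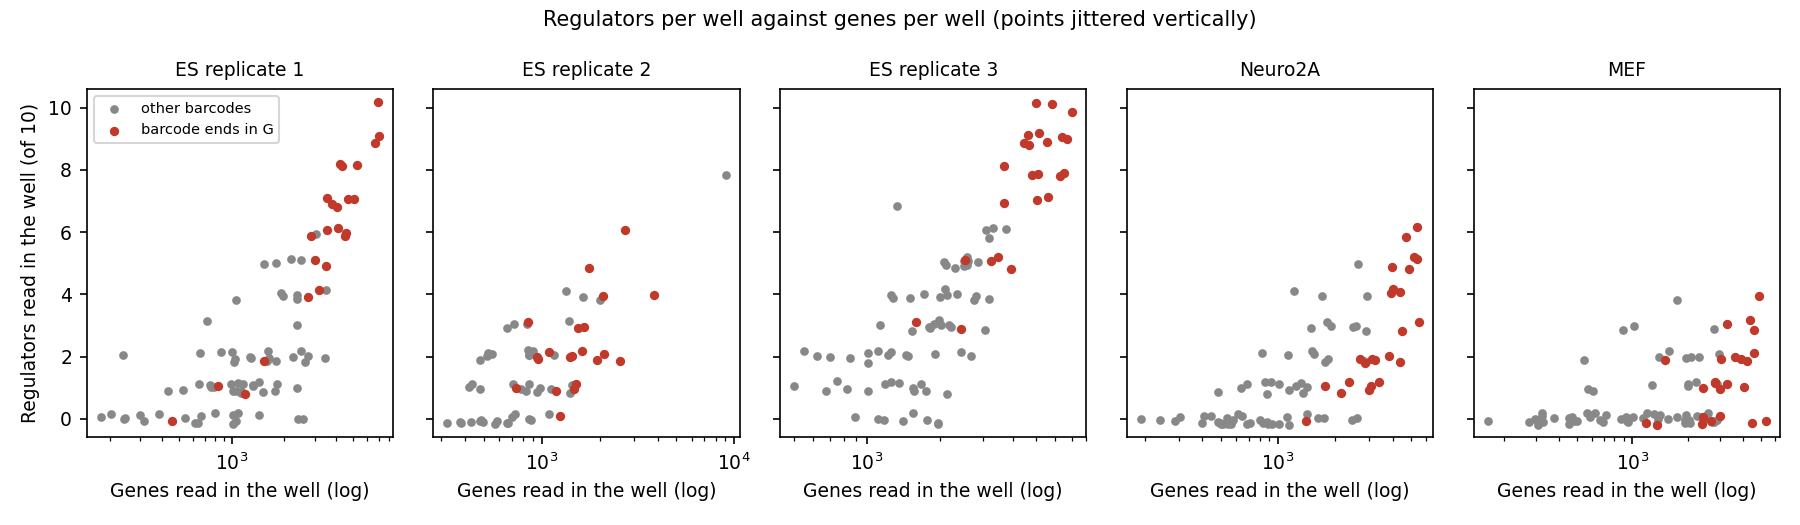
Number of the 10 regulators read in each kept well against the number of genes read in it (log scale), by plate, with wells whose barcode ends in G in red and points shifted slightly up or down so that they do not cover each other. Wells with many regulators are mostly wells with many genes, and in ES replicates 1 and 3 most of those with 7 or more are red. An exception is a well of ES replicate 3 with 7 regulators and 1328 genes, whose barcode does not end in G.

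The genes whose counts followed the number of regulators most closely were sought in ES replicates 1 (90 wells) and 3 (85 wells) at 5000 reads a well, among 2566 genes read in at least 10% of both. The first was Tuba1b, an alpha-tubulin, with a mean Spearman rho of 0.458 (0.422 and 0.493 in the 2 plates). It was followed by Tmem93 (0.384), 2410116G06Rik (0.379), Gatad2a (0.369), D17Wsu92e (0.368), Commd1 (0.367), EG545121 (0.362) and 6330577E15Rik (0.355). The median over the ranked genes was 0.129. The ranking was not adjusted for the number of genes read in a well. That number had a rho of 0.512 and 0.513 with the number of regulators in these wells, above the mean rho of every ranked gene. Outside ES, the rho of Tuba1b was 0.135 in Neuro2A and 0.341 in MEF, that of Commd1 0.305 and 0.212, and that of Tmem93 0.0352 and -0.0175. In sparse counts from wells that share a library such values are weak and describe these plates only.

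Other genes of mitosis were read from 8 lists with 102 genes, of which 101 had reads and 97 were tested. Every ES plate was above MEF for 65 of the 97 and below it for 6, and above Neuro2A for 49 and below it for 18 (backgrounds 31.5% and 28.5% against MEF, 30.9% and 25.6% against Neuro2A). edgeR called 0 in either comparison. At an unadjusted 0.05 it held 16 higher and 1 lower against MEF and 15 higher and 2 lower against Neuro2A. DESeq2 called 12 and 15 higher and 0 lower. Over all genes, the shares higher in ES were 4.21% and 8.38% in edgeR unadjusted and 3.39% and 8.85% in DESeq2. With the shared reads subtracted, the counts were 67 above and 7 below MEF and 49 above and 17 below Neuro2A. The shares over all genes were not worked out for that setting. The median ratio of ES to MEF was 5.96 over the 97 as deposited, between the 16.3 of the 10 regulators and the 1.60 of all genes.

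**Figure D5:**
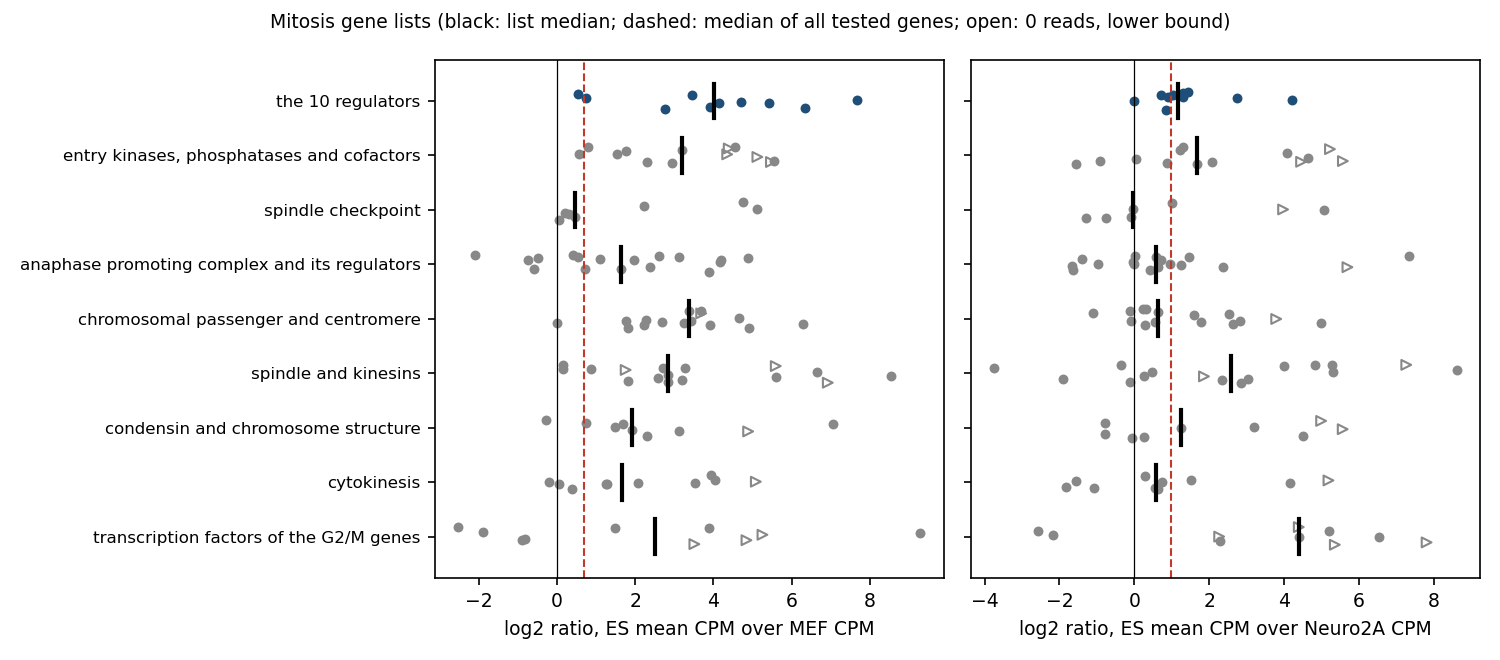
Log2 ratio of the mean ES level to the MEF level (left) and to the Neuro2A level (right), in CPM, for each tested gene of the 10 regulators and of the 8 other mitosis lists, with list medians in black and the median of all tested genes dashed in red. Open triangles are lower bounds for genes with 0 reads in the other plate, set to 3 reads; the 10 regulators lie mostly right of the dashed line against MEF and around it against Neuro2A.

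Among entry kinases, phosphatases and cofactors, every ES plate was above MEF for 10 of 13 genes and above Neuro2A for 8. The shares over all genes were 31.5% and 30.9%, and the list's median ratios were 9.13 and 3.19. Cks2, a subunit of cyclin-dependent kinase complexes, was at 221 ± 63.7 CPM in ES (SD, n = 3), 89.7 CPM in Neuro2A and 28.7 CPM in MEF. Its paralog Cks1b, at 157 ± 68.3, 85.9 and 106 CPM, and the inhibitory kinase Wee1, at 87.8 ± 52.5, 84.9 and 50.8 CPM, overlapped between ES and the others. The chromosomal passenger and centromere list was above MEF in every ES plate for 14 of 15 genes and above Neuro2A for 7, with median ratios of 10.4 and 1.57. Its member Birc5 (survivin), the partner of Aurkb, was at 390 ± 106 CPM in ES, 330 CPM in Neuro2A and 36.2 CPM in MEF. Sgol2 (shugoshin), which protects centromeric cohesion, was at 237 ± 124, 161 and 22.9 CPM, and the centromeric histone Cenpa at 129 ± 12.7, 140 and 37.9 CPM.

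Spindle genes and kinesins were above MEF in every ES plate for 11 of 16 genes and above Neuro2A for 10. Of all genes 31.5% and 30.9% were, and the list's median ratios were 7.17 and 6.11. Nusap1, which bundles spindle microtubules, was at 363 ± 103 CPM in ES (SD, n = 3), 22.8 CPM in Neuro2A and 7.51 CPM in MEF. DESeq2 gave Nusap1 adjusted p of 3.6e-05 against MEF and 0.00134 against Neuro2A, and edgeR 0.472 and 0.309. Psrc1, a microtubule-binding protein, had 146 ± 42.5 CPM in ES, 131 CPM in MEF and 0 reads in Neuro2A, at least 154 times lower there than the ES mean at the floor of 3 reads. Ckap2 was at 191 ± 26.5, 161 and 20.8 CPM.

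In the spindle checkpoint list, every ES plate was above MEF for 3 of 7 genes and above Neuro2A for 2. That is 42.9% and 28.6%, beside 31.5% and 30.9% of all genes. The list's median ratios were 1.37 and 0.969. Bub1, the kinase paralog of Bub1b, was at 89.2 ± 36.5 CPM in ES (SD, n = 3), 217 CPM in Neuro2A and 72.3 CPM in MEF. Bub3, the partner of both, was at 100.2 ± 22.1, 170 and 87.0 CPM, and Zwilch of the kinetochore RZZ complex at 75.2 ± 38.7, 77.7 and 16.04 CPM. Mad2l1 (107 ± 43.7, 52.9 and 3.07 CPM) and Ttk (64.2 ± 56.5, 1.90 and 2.39 CPM), named here after their values were seen, had every ES plate above the other plates, as Bub1b did. Of the anaphase promoting complex, the target of Cdc20, Anapc5 had every ES plate above the other plates and Cdc16 every ES plate below them. Anapc5 was at 216 ± 104 CPM in ES, 145 in Neuro2A and 131 in MEF, Cdc27 at 92.5 ± 99.4, 244 and 138, and Cdc16 at 69.5 ± 18.8, 216 and 115. Over that list every ES plate was above MEF for 11 of 17 genes and below for 2, and above Neuro2A for 9 and below for 4. Of all genes, 28.5% were below MEF and 25.6% below Neuro2A in every ES plate.

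Condensin and chromosome structure genes were above MEF in every ES plate for 7 of 9 genes and above Neuro2A for 4. Of all genes 31.5% and 30.9% were. The condensin subunits Smc4 (336 ± 116, 279 and 88.4 CPM in ES, Neuro2A and MEF) and Smc2 (544 ± 607, 228 and 111 CPM) and the proliferation marker Mki67 (118 ± 19.1, 203 and 69.9 CPM) were its most abundant members. The SD of Smc2 exceeded its mean, with 1230 CPM in ES replicate 2 and 76.4 CPM in ES replicate 1. Of cytokinesis genes, every ES plate was above MEF for 4 of 10 and above Neuro2A for 3. That is 40% and 30%, near the shares of all genes. Racgap1, of the centralspindlin complex, was at 107 ± 41.0 CPM in ES, 377 CPM in Neuro2A and 25.6 CPM in MEF, and its partner Ect2, which activates RhoA, at 130 ± 58.5, 276 and 11.3 CPM. Subtraction of the shared reads left 10 of 75 MEF reads of Racgap1 and 3 of 33 of Ect2. Anln (anillin), at 153 ± 30.3, 98.9 and 147 CPM, differed little between ES and MEF.

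Among transcription factors known to act on G2/M genes, every ES plate was above MEF for 5 of 10 genes and below for 4. Against Neuro2A the counts were 6 above and 2 below. Of all genes 31.5% were above and 28.5% below MEF, and 30.9% above and 25.6% below Neuro2A. Mybl2 (B-Myb), which joins MuvB at CHR promoters, was at 164, 259 and 217 CPM in ES (213 ± 47.7, SD, n = 3), with 0 reads in Neuro2A and 1 read in MEF. The ES mean was at least 224 times the Neuro2A level at the floor of 3 reads, and 626 times the MEF level with a counting interval of 112 to 24707 (exact Poisson, 95%). DESeq2 gave Mybl2 adjusted p of 4.1e-05 against Neuro2A and 0.000145 against MEF, and edgeR 0.177 and 0.472. The NF-Y subunits went different ways, with Nfyb at 104 ± 45.3 CPM in ES, 21.2 CPM in Neuro2A and 37.2 CPM in MEF, and Nfyc at 18.9 ± 10.1, 84.9 and 109 CPM. The single Neuro2A plate held 1936 reads of the 10 regulators and 0 of Mybl2, and a link between these values was not tested.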

How the data were processed

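The deposited tables hold raw read counts per feature and well barcode, per the file headers and the deposited readme. The authors aligned reads with Bowtie, per the submitters' processing notes. The aligner version, build and gene models were not given in the sources used here. Repeat and mitochondrial features (23.02 to 82.4% and 2.44 to 12.9% of a plate's reads) were left out, a gene absent from a plate was taken as 0, and wells with at least 1000 gene reads were summed per plate. Plate sums were tested with edgeR 4.0.16 (glmQLFit and glmQLFTest, TMM, filterByExpr, Benjamini-Hochberg at 0.05), all 5 plates in 1 fit, and with DESeq2 1.42.0 as an alternative. The share taken as common to MEF and Neuro2A, and to ES replicate 3 and MEF, was a median ratio of plate totals. It was taken over genes of at least 100 CPM in the source plate and at least 10 times less on the plates outside the pair. That share of a source well's reads was subtracted, rounded, from the well of the same barcode. Scripts were tested on simulated data. The members and lists were chosen with earlier results of these data known. Named genes were the 10 members, the 3 tested genes of each other list with the highest mean CPM over the cell types, and the 8 genes most like the member count per well. Mad2l1 and Ttk are outside this rule.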

Additional observations from a re-analysis of the deposited data

Results flagged for a closer look

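The 30 wells of ES replicate 2 with fewer than 1000 gene reads, left out of the main comparisons, held 18 reads of the 10 regulators among 14551 gene reads. That is 1237 CPM, beside 1234 CPM in the kept wells of the plate. The reads stood in 11 wells and covered 7 of the 10 genes.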

How the results depend on the processing

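No paired analysis was possible because Neuro2A and MEF have 1 plate each and the labels give the ES plates no numbers to pair with them. The count of genes edgeR called was 0 in both comparisons. Against MEF it became 506 with DESeq2, 9 without a filter on low counts, 18 with wells thinned to 5000 reads, and 0 to 645 when an ES replicate was left out; against Neuro2A it became 1249, 82 and 95, and 0 to 1438. The upper end of both ranges is without ES replicate 1, where the common dispersion was 0.577 against 1.50. Against MEF, Aurka became negative with thinned wells (-0.22) and without ES replicate 1, with a range of -0.46 to 0.89 over left-out replicates. Plk1 became positive with library size alone (0.54), without a filter (0.37) and without ES replicate 1 or 2, with a range of -0.53 to 0.58. Cep55 against Neuro2A became 0.0032 with library size alone. The cause was not tested. The percent of wells with any regulator moved with depth: in ES replicate 1 it was 39.8 at 1000 reads and 78.5 unthinned, with or without subtraction; in ES replicate 2 100 at 10000 reads (2 wells); in ES replicate 3 57.4 at 1000 reads; in Neuro2A 24.4 at 1000 reads and 61.6 unthinned; in MEF 33.96 at 10000 reads and 37.0 unthinned. With every well given equal weight, a choice made after seeing the data, every ES plate was above MEF for 8 and above Neuro2A for 7 of the 10 genes.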
